A study of Mus musculus with 2 samples.

Results

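The type I interferon response genes are the genes that cells switch on when interferon alpha or beta binds its receptor. A list of 36 such genes was followed gene by gene in leukocytes of mouse mammary tumours, and 35 of them had a row among the 27998 genes counted (Mx2 had none and is not analysed here). RNA of single cells was counted in 2 libraries, 1 from untreated mice and 1 from mice that drank water with 0.5% nicotinamide (NAM, a B3 vitamin) for 10 days. Both groups were female BALB/c mice carrying tumours grown under the skin from TSA cells, a transplanted mouse mammary adenocarcinoma line, and the study's methods give 6 to 15 weeks as the age of its mice. Tumours of 3 mice were pooled per group before CD45+ cells (leukocytes) were taken with magnetic beads, so each group is a single library, values of single mice cannot be recovered, and a library effect and an effect of NAM cannot be told apart. No test was therefore made, no p-value is given, and all intervals are 95% intervals for counting error alone.

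Interferon alpha and beta bind the receptor of Ifnar1 and Ifnar2, and the kinases Jak1 and Tyk2 then activate Stat2. It joins Irf9 in the complex ISGF3, which binds interferon-stimulated response elements in the promoters of target genes. The targets include proteins that bind or degrade viral RNA (the Ifit and Oas families), enzymes and membrane proteins that block viral growth, sensors that recognise foreign nucleic acid, and Irf7, a transcription factor that raises interferon production further. In tumours, type I interferon from myeloid cells is known for its part in antigen presentation and in the priming of T cells.

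All 34 members with coordinates in the GENCODE vM21 annotation (GRCm38; Pyhin1 had none) are protein-coding genes, and several lie side by side. Ifit2 (chr19:34550694-34576419), Ifit3 (chr19:34583531-34588731), Ifit3b (chr19:34607970-34613401) and Ifit1 (chr19:34640871-34650009) form 1 cluster on chromosome 19, and Rsad2 (chr12:26442746-26456452) neighbours Cmpk2 (chr12:26469204-26479837). Oasl2 and Oasl1 lie at chr5:114896936-114912234 and chr5:114923240-114937915, on the same chromosome as Oas2, Oas3 and Oas1a. Promoters were read from RefSeq (GRCm38.p6, 250 bases before to 50 bases after the start), and 25 of the 35 members had an entry. The letters GAAANNGAAA, the core of the response element searched on both strands with overlaps allowed, stood in 13 of these 25 windows (52%), against 1079 of 27025 genes with an entry (3.99%). Before the start alone the numbers were 10 of 25 (40%) and 936 genes (3.46%). These matches describe letters in the reference sequence, and binding was not measured. The stretches below, on the strand of each gene, are those of members whose values recur in the results, with the matched letters in capitals (TTTCNNTTTC is the same motif on the other strand).
Ifit1, chr19:34640773-34640825 (plus strand): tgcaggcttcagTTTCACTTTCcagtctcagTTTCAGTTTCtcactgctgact
Ifit3, chr19:34583361-34583428 (plus strand): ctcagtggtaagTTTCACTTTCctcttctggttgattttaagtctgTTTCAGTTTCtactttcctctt
Ifit3b, chr19:34607757-34607824 (plus strand): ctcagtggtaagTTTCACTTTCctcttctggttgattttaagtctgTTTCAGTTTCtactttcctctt
Isg15, chr4:156200863-156200908 (minus strand): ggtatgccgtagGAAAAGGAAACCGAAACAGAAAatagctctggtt
Oas1a, chr5:120907526-120907557 (minus strand): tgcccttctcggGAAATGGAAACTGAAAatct
Rsad2, chr12:26456551-26456584 (minus strand): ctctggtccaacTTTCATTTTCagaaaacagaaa
Bst2, chr8:71537575-71537614 (minus strand): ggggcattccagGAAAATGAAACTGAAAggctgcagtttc

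The Ifit3 and Ifit3b stretches of 68 bases were identical, while the windows of the pair shared 75% of 268 aligned bases. Isg15 had 3 overlapping matches and Oas1a and Bst2 had 2 each. Irf7, Oasl1, Oasl2 and Cmpk2 were among the 12 members whose windows lacked these letters, and Zbp1, Mx1 and Usp18 were among the 10 members with no entry. Cell Ranger, which counted the reads, discards reads that match more than 1 gene, so levels of close copies (Ifit3 and Ifit3b, Oas1a, Ifi204 and Pyhin1, Phf11d, Trim30a) are uncertain.

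The untreated library held 2922 cells and the NAM library 3276, with medians of 9056 and 9128 unique molecular identifiers (UMIs, each marking a captured RNA molecule) and 11 barcodes in common. Cell groups were set by marker UMIs, and 86.3% and 84.3% of cells entered a group. Macrophages (C1q genes with Csf1r, Adgre1 or Fcgr1) numbered 1982 without NAM and 2177 with NAM. Ly6c2 monocytes numbered 197 and 212, dendritic cells 66 and 76, CD8 T cells 95 and 145, other T cells 103 and 111, and NK cells 78 and 42. Red cell RNA (Hbb-bs, Hba-a1) differed between the libraries, at 15.6 CPM (UMIs of a gene scaled to a total of 1000000) without NAM and 526 CPM with NAM, with most of it in few cells. In monocytes it stood at 18.9 and 4107 CPM and in CD8 T cells at 14.1 and 6382 CPM, and 1 NAM cell held 5029 of 5073 and 4820 of 4856 of these UMIs. Without cells holding 3 or more such UMIs, left out after seeing the data, the median log2 ratios of the list given below moved by 0.02 or less, rounded, in each of the 6 groups. Markers of neutrophils, B cells, plasmacytoid dendritic cells, tumour cells and fibroblasts lay between 3.61 and 70.4 CPM in both. The members took 85193 UMIs without NAM and 95278 with NAM, or 0.292% and 0.297% of all UMIs.

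Ly6c2 monocytes, cells newly arrived from blood, carried the interferon response genes at the highest level of all cell groups, and they did so in both libraries. The members' summed level in monocytes was 8185 CPM without NAM and 8346 CPM with NAM. Macrophages had 2798 and 2967 CPM, dendritic cells 3610 and 1943 CPM, NK cells 2174 and 2566 CPM, other T cells 2453 and 2166 CPM, and CD8 T cells 1387 and 1274 CPM. Monocytes were the highest group for 22 of 35 members in both libraries, and no other group was highest for any member in both. Among the rest, Ifit1, Ifit2, Ifit3 and Usp18 were highest in Cd209a dendritic cells of the untreated library and in monocytes of the NAM library.

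**Figure D1:**
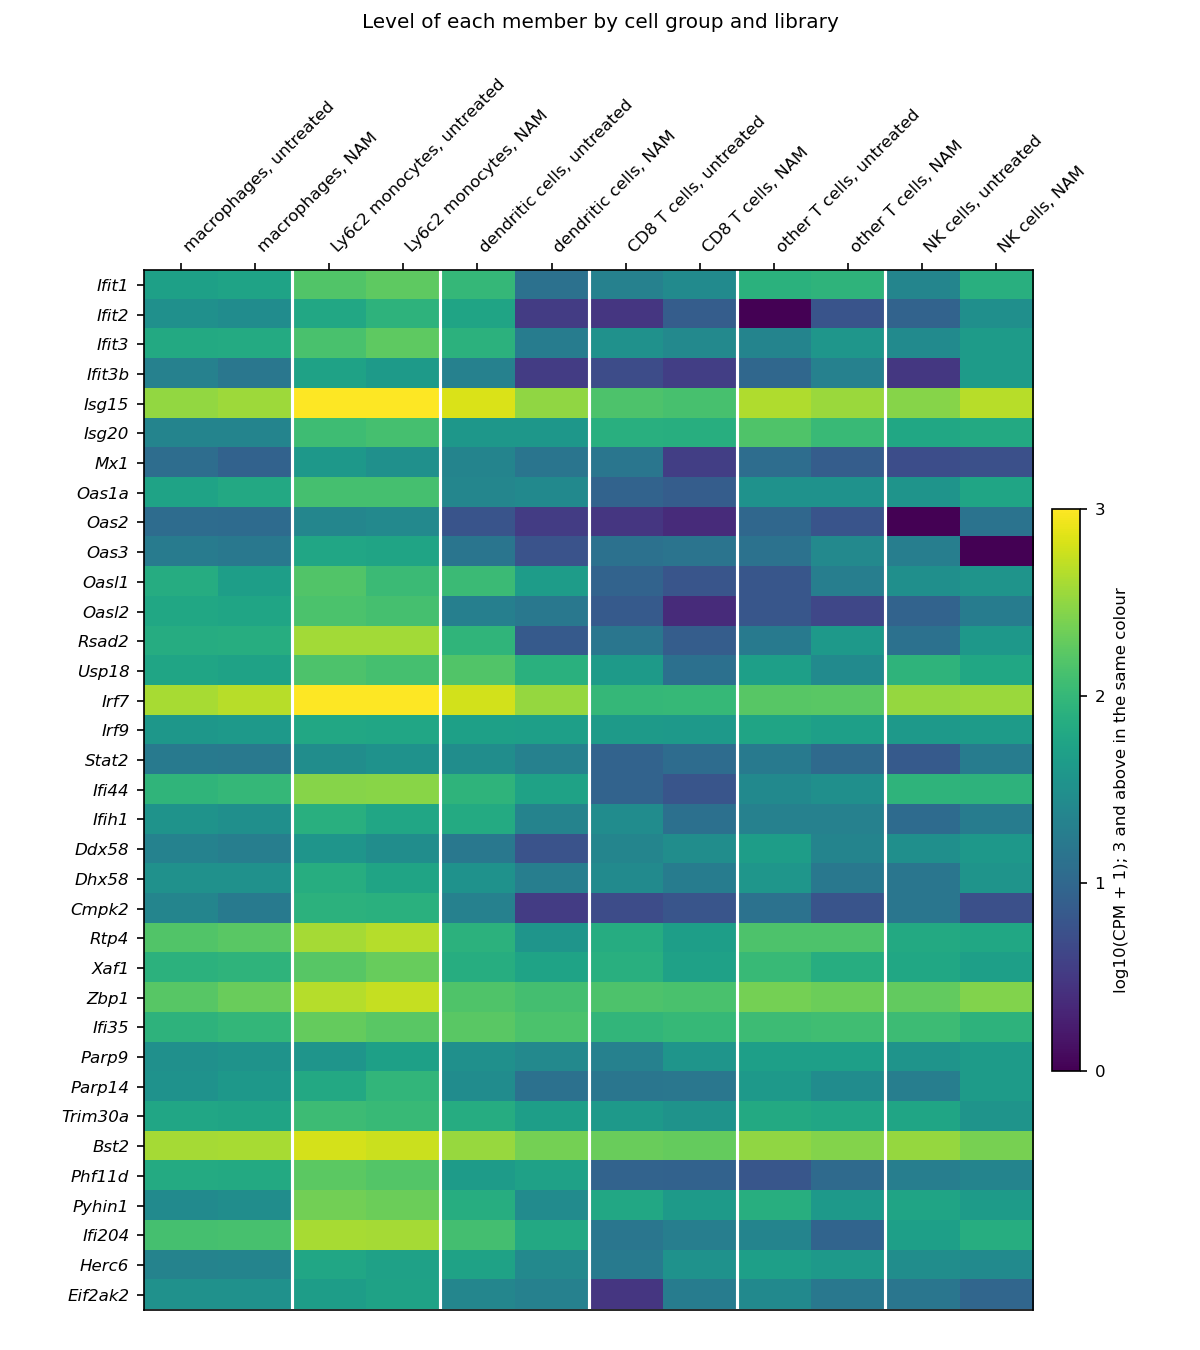
Level of each of the 35 members (rows) in 6 cell groups of the untreated and NAM libraries (columns), as log10(CPM + 1) in colour with 1 library per column. The Ly6c2 monocyte columns are the brightest for most members, and Isg15, Irf7 and Bst2 are bright in every group. Capture was not measured gene by gene, so rows are best read across groups and not against each other.

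Set against macrophages of the same library, 35 of 35 members were higher in monocytes in both libraries, by a median of 2.42-fold without NAM and 2.45-fold with NAM. A log2 ratio of 0.5 or more (1.41-fold), the fold used here to call a gene, was reached in both libraries by 34 members, against 8.71% of the 10907 genes with at least 20 UMIs. Isg15, a ubiquitin-like protein joined to other proteins during infection, stood at 1595 CPM in monocytes and 326 CPM in macrophages of the untreated library, and at 1662 and 359 CPM in the NAM library. Irf7 stood at 1385 against 405 CPM and at 1406 against 475 CPM. Rsad2 (viperin), an enzyme that makes a chain-terminating nucleotide, stood at 381 against 71.4 CPM and at 382 against 72.4 CPM. The widest gap was that of Pyhin1, of the family of nuclear DNA sensors, at 8.76-fold and 7.53-fold, followed by the nuclease Isg20 at 5.38-fold and 6.04-fold. Among the narrowest gaps were those of Parp9 (1.15-fold and 1.45-fold), Eif2ak2 (1.43-fold and 1.65-fold) and Bst2 (tetherin, which holds budding virus at the cell surface; 1.62-fold and 1.43-fold). Monocytes thus stood above macrophages throughout, by gaps of similar size in each library.

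RNA released from broken cells enters every droplet, so members counted in lymphocytes were set beside macrophage RNA counted there. C1qa, C1qb, C1qc and Apoe in the lymphocyte groups lay between 1.66% and 4.15% of their macrophage level. In each lymphocyte group and library 34 or 35 of the 35 members lay above that range, and the median member stood at 37.3% to 88.5% of its macrophage level. Most members were thus above the level of this macrophage RNA, although the lymphocyte gates themselves kept C1q UMIs below 20. Cd209a, a dendritic marker, stood at 83.4 and 56.4 CPM in NK cells and at 36.1 and 0 CPM in CD8 T cells. In dendritic cells it stood at 573 and 462 CPM, while Xcr1 and Clec9a were at 0 CPM in NK cells. The part of RNA from cells other than macrophages was not tested.

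A small part of the cells held the response genes at a far higher level. Cells were called interferon-high when Ifit1, Ifit2, Ifit3 and Rsad2 together had 5 or more UMIs after each cell had been thinned to 3000 UMIs. This is a cut in a range and not a cell type: 81.9% and 81.3% of cells had none of these UMIs, 82 and 76 cells lay just below the cut at 3 or 4 UMIs, and 44 and 48 lay just above it at 5 to 7. There were 111 interferon-high cells in the untreated library (3.80%, interval 3.14% to 4.56%) and 122 in the NAM library (3.72%, 3.10% to 4.43%). They held 22.6% of member UMIs without NAM and 20.9% with NAM, and 19.2% and 17.3% when the 4 gate genes, which chose the cells, were left out. A second gate on Isg15, Usp18, Oasl1 and Cmpk2 (11 or more thinned UMIs) took 236 cells over both libraries against 233 by the first, with 131 taken by both.

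Of the 6 main cell groups, Ly6c2 monocytes had the highest share of interferon-high cells, at 20 of 197 cells (10.2%, interval 6.31% to 15.2%) in the untreated and 22 of 212 (10.4%, 6.62% to 15.3%) in the NAM library. Among macrophages they were 73 of 1982 (3.68%, 2.90% to 4.61%) and 79 of 2177 (3.63%, 2.88% to 4.50%). The log2 ratio of the macrophage shares was -0.02, with an interval from -0.50 to 0.46, so a difference of up to about that size was not detectable at this number of cells. With the second gate the macrophage shares were 3.23% and 2.53% (log2 ratio -0.35, interval -0.90 to 0.19), and the monocyte shares were 17.3% and 17.5%. Within macrophages the first gate took 15 of 388 and 15 of 443 Vcam1 macrophages, 11 of 292 and 17 of 346 Mmp12 macrophages, 10 of 254 and 8 of 250 cycling macrophages, 7 of 153 and 4 of 100 Ctsk macrophages, and 30 of 895 and 35 of 1038 other macrophages. The subset intervals of the libraries overlapped in every case. By the first gate the count in dendritic cells was 3 of 66 without NAM and 0 of 76 with NAM, which allows a share of up to 3.95% by a floor of 3 cells and 4.74% by the exact interval. All 3 cells were Cd209a dendritic cells (3 of 28, or 10.7%, interval 2.27% to 28.2%), a share as high as that of monocytes but from few cells. By the second gate 5 of 66 (7.58%) and 2 of 76 dendritic cells (2.63%) were high, namely the same 3 Cd209a cells and, in each library, 1 type 1 and 1 mature dendritic cell. By the first gate CD8 T cells had 0 of 95 (a share of up to 3.16% by the floor and 3.81% by the exact interval) and 2 of 145, other T cells 2 of 103 and 2 of 111, and NK cells 1 of 78 and 1 of 42.

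**Figure D2:**
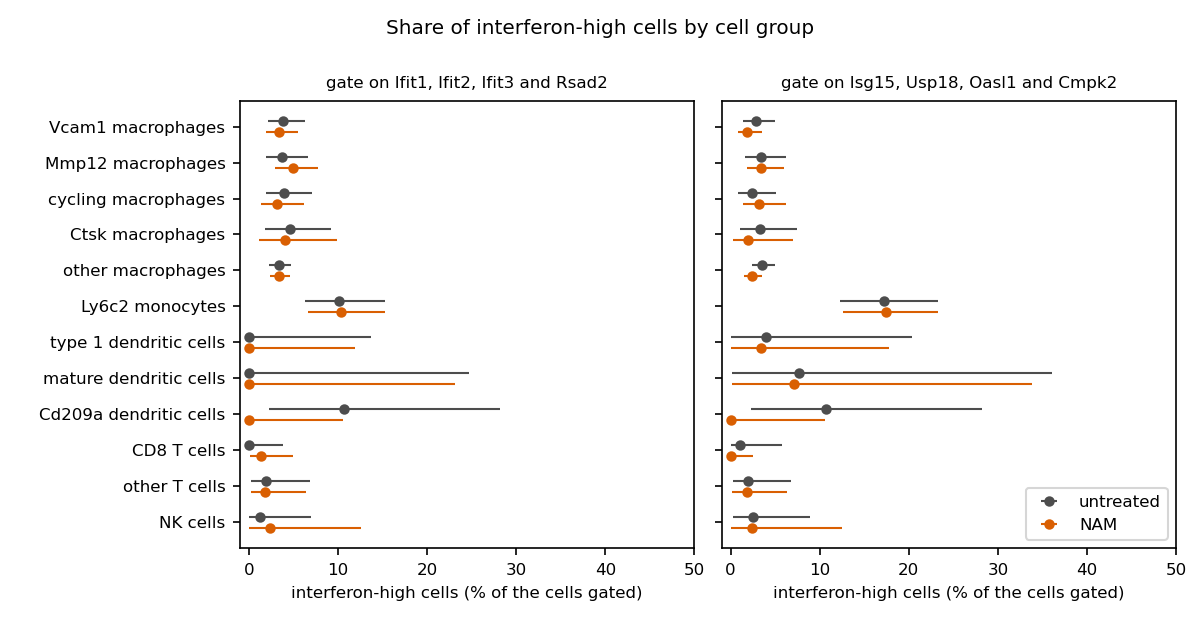
Interferon-high cells as a percent of the cells of each group (points) with exact 95% Clopper-Pearson intervals (lines), in the untreated library (grey) and the NAM library (orange), by the first gate (left) and the second gate (right). Ly6c2 monocytes stand near 10% by the first gate in both libraries, macrophage subsets lie between 3.20% and 4.91%, and Cd209a dendritic cells had 3 of 28 cells without NAM and 0 of 33 with NAM.

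The members were not raised evenly in interferon-high macrophages. The fold between interferon-high and other macrophages had a median of 5.36 without NAM and 4.67 with NAM, and each of the gate genes of the first gate is described by the second gate, which does not use it. A log2 ratio of 0.5 or more in both libraries was reached by 34 of 35 members, against 5.45% of 10831 genes, but the gates use members of the same list, so this count describes the gate and supports nothing else. Cmpk2, a mitochondrial nucleotide kinase next to Rsad2 on the chromosome, had the widest range, from 8.03 CPM in other macrophages to 359 CPM in interferon-high macrophages of the untreated library (44.7-fold) and from 6.37 to 260 CPM in the NAM library (40.8-fold). Ifit3b stood at 29.5-fold and 31.9-fold. Ifit1, which binds viral RNA that lacks a host cap, went from 28.2 to 661 CPM (23.4-fold) and from 29.3 to 943 CPM (32.2-fold). Rsad2 stood at 26.3-fold and 26.8-fold and Ifit3 at 24.9-fold and 21.8-fold.

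At the other end, Irf9, the DNA-binding part of ISGF3, had the smallest fold of the list, at 37.4 against 46.5 CPM in the untreated library (1.24-fold, with an interval that includes 1) and 38.7 against 66.6 CPM in the NAM library (1.72-fold, with an interval above 1). Bst2 stood at 2.37-fold and 2.11-fold, Parp9 at 2.96-fold and 2.30-fold, the sensor of Z-form nucleic acid Zbp1 at 2.98-fold and 2.56-fold, and Oas1a at 3.03-fold and 2.82-fold. Irf7 was in between, with 367 CPM in other and 1296 CPM in interferon-high macrophages of the untreated library (3.53-fold). Thus Bst2, Zbp1, Irf7 and Oas1a were counted broadly over macrophages, while Cmpk2, Ifit3b, Ifit1, Rsad2 and Ifit3 were concentrated in the interferon-high cells. Median UMIs per cell were near each other, at 10593 in interferon-high and 9850 in other macrophages of the untreated library. The macrophage genes C1qa, C1qb and C1qc together stood at 17812 CPM in interferon-high and 16855 CPM in other macrophages of the untreated library, and at 15048 and 18863 CPM in the NAM library.

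**Figure D3:**
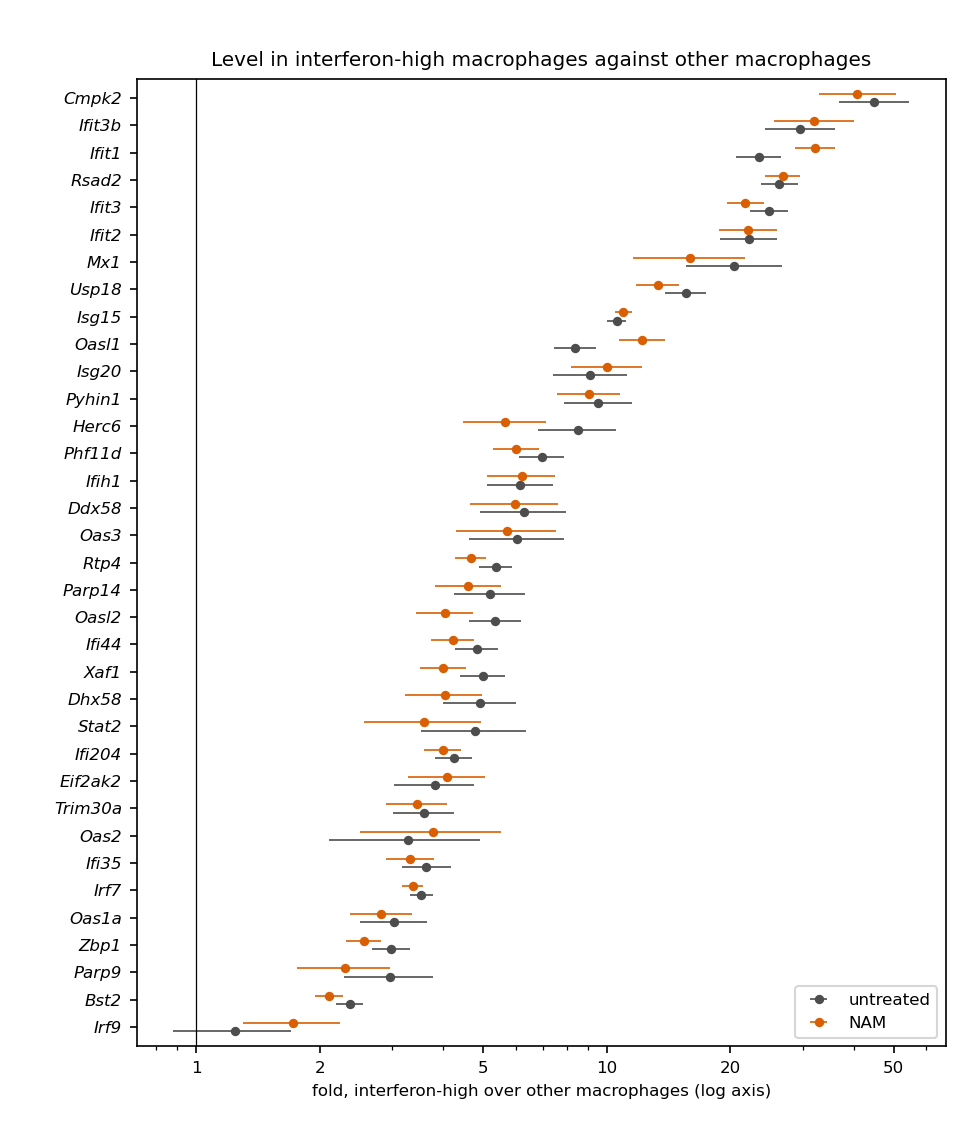
Fold of each member's CPM between interferon-high and other macrophages (log axis), in the untreated library (grey) and the NAM library (orange), with exact 95% intervals for counting error. Members run from Irf9 at 1.24-fold to Cmpk2 at 44.7-fold in the untreated library, and the points of the libraries lie close together for most members.

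In all macrophages, the NAM library had no shift of the list as a whole: the median log2 ratio of NAM over untreated was 0.02 over the 35 members, against -0.04 over all 11928 genes with 20 or more UMIs. By the fold used here 0 members were higher (4.09% of all genes) and 1 was lower, Oasl1 (9.24% of all genes). Intervals lay above 0 for 10 of 35 members (12.7% of all genes) and below 0 for 6 (20.1% of all genes), and 19 intervals included 0. Without macrophages that also carried markers of another lineage 4 members were lower by the fold. Single members beneath the near-zero median are given next.

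Among the oligoadenylate synthetases and their relatives, a family that includes the enzymes making the activator of RNase L, Oasl1 and Oas1a went opposite ways. Oasl1, known in mouse for holding back the translation of Irf7, stood at 70.9 CPM in untreated and 47.2 CPM in NAM macrophages (1483 and 1087 UMIs, log2 ratio -0.59, interval -0.70 to -0.47). Oas1a stood at 53.6 and 63.7 CPM (0.25, 0.14 to 0.36). Oasl2 (59.7 and 57.2 CPM), Oas2 (10.5 and 10.2 CPM) and Oas3 (16.9 and 14.9 CPM) had intervals that included 0.

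Of the transcription factors, Irf7 was higher in the NAM library and its partners in the pathway were not separable from 0. Irf7 stood at 405 CPM (8467 UMIs) in untreated and 475 CPM (10949 UMIs) in NAM macrophages (log2 ratio 0.23, interval 0.19 to 0.27). Irf9 (37.8 and 39.8 CPM) and Stat2 (335 and 350 UMIs) had intervals that included 0. Irf7 and Oasl1, linked by the translational control named above, thus differed in opposite directions at the level of RNA, and protein was not measured.

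Among the sensors, Zbp1 had the largest positive difference of the list, from 164 to 207 CPM (log2 ratio 0.33, interval 0.27 to 0.40). Ifih1 (MDA5, a sensor of long double-stranded RNA) stood at 33.8 and 29.9 CPM (-0.18, -0.33 to -0.02). Ddx58 (RIG-I, 20.3 and 18.5 CPM), Dhx58 (LGP2, 32.1 and 31.6 CPM), Pyhin1 (26.0 and 28.3 CPM) and Ifi204 (129 and 132 CPM) had intervals that included 0.

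In the Ifit family, Ifit1 stood at 49.3 and 54.0 CPM (log2 ratio 0.13, interval 0.01 to 0.25), although the single highest NAM macrophage held 126 of its 1243 UMIs (10.1%). Without that cell, left out after seeing the data, the ratio was -0.02 (-0.15 to 0.10). Its close copy pair split: Ifit3 stood at 66.1 and 67.5 CPM with an interval that included 0, and Ifit3b at 19.8 and 14.3 CPM (-0.47, -0.68 to -0.26). Ifit2 stood at 31.1 and 27.9 CPM with an interval that reached 0.

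In the ISG15 pathway, Isg15 stood at 326 and 359 CPM (0.14, 0.09 to 0.19). Usp18, the protease that removes ISG15 from proteins and dampens the receptor, stood at 57.6 and 52.1 CPM (-0.14, -0.26 to -0.03). Herc6, the mouse ligase for ISG15, stood at 20.8 and 21.6 CPM with an interval that included 0.

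Of the 8 other antiviral effectors, 3 had intervals above 0 and 2 below. Those above were Rtp4 (151 and 170 CPM, log2 ratio 0.17), Ifi44 (90.6 and 99.6 CPM, 0.14) and Bst2 (392 and 405 CPM, 0.05). Those below were Mx1 (10.9 and 7.82 CPM, -0.49, interval -0.78 to -0.20), whose protein is defective in most inbred strains, and Cmpk2 (22.5 and 16.1 CPM, -0.48, -0.68 to -0.28). Rsad2 (71.4 and 72.4 CPM), Isg20 and the kinase Eif2ak2 (PKR) had intervals that included 0. Of the 6 remaining members, Parp14 (33.3 and 39.1 CPM, 0.23) and Ifi35 (87.1 and 94.7 CPM, 0.12) had intervals above 0, and Xaf1, Parp9, Trim30a and Phf11d had intervals that included 0.

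**Figure D4:**
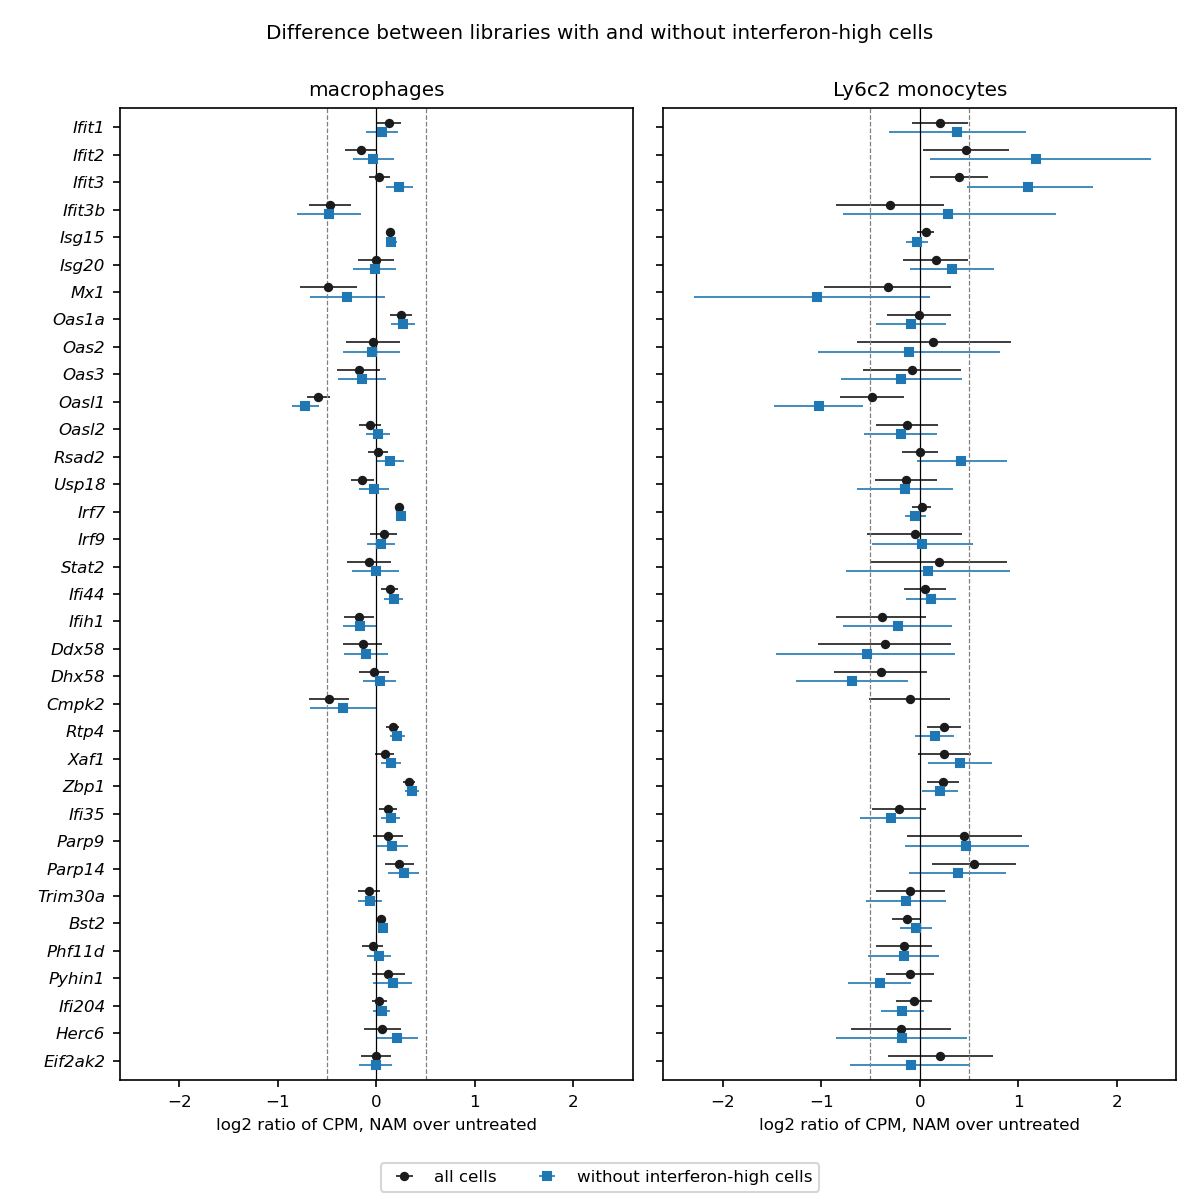
Log2 ratio of CPM, NAM over untreated, for each member with 20 or more UMIs in macrophages (left) and Ly6c2 monocytes (right), over all cells (black circles) and without interferon-high cells (blue squares), with exact 95% intervals for counting error and dashed lines at the fold used (0.5 either way). Oasl1 is the only macrophage member beyond the lower dashed line, and Irf7 and Zbp1 lie above 0 with narrow intervals in macrophages.

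Interferon-high cells and the level in all other cells were then kept apart. Without interferon-high cells the median over the 35 members in macrophages was 0.05, against -0.04 over all genes, with 0 members higher by the fold used (4.08% of all genes) and 1 lower (9.21% of all genes). Intervals lay above 0 for 12 members (12.8% of all genes) and below 0 for 2 (19.6% of all genes). Oasl1 was again the member past the fold, at 54.4 CPM in untreated and 33.0 CPM in NAM macrophages that were not interferon-high (log2 ratio -0.72, interval -0.86 to -0.58). Within interferon-high macrophages it stood at 456 and 402 CPM (-0.18, -0.39 to 0.03). Oasl1 was thus lower in the bulk of the macrophages, and its fold between interferon-high and other macrophages was 8.37 without NAM and 12.2 with NAM.

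Zbp1 (152 and 195 CPM, log2 ratio 0.36) and Irf7 (367 and 436 CPM, 0.25) were as far apart between the libraries without interferon-high cells as with them. Oas1a (0.27), Parp14 (0.28) and Rtp4 (0.21) likewise had intervals above 0. Ifit3, described by the second gate, stood at 36.7 and 43.2 CPM (0.23, 0.10 to 0.37), while Ifit3b stood at 9.12 and 6.55 CPM (-0.48, -0.80 to -0.16). In interferon-high macrophages Ifit1 stood at 661 and 943 CPM (0.51, 0.33 to 0.69), but at 0.21 (0.02 to 0.40) without the NAM cell that held 126 of the 586 UMIs there. Cmpk2 stood at 359 and 260 CPM (-0.47, -0.72 to -0.22).

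The difference was also split by arithmetic, giving each library the other's share of interferon-high cells. Over the members in macrophages, the median log2 ratio was -0.01 from the share alone, -0.01 from the level within interferon-high cells alone and 0.03 from the level in other cells alone. In monocytes the same medians were -0.03, 0.08 and -0.06. No term moved the median of the list far from 0 in either group.

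Across the 5 macrophage subsets, Irf7 and Zbp1 were higher in the NAM library in 5 of 5, each time with an interval above 0 (1.22% of all genes). The log2 ratio of Irf7 ran from 0.08 in other macrophages (456 and 481 CPM) to 0.46 in Ctsk macrophages (453 and 625 CPM). That of Zbp1 ran from 0.21 in other macrophages (187 and 216 CPM) to 0.50 in Vcam1 macrophages (165 and 233 CPM). Oas1a was higher in 5 of 5 subsets, with intervals above 0 in Vcam1 and cycling macrophages.

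Oasl1 was lower in the NAM library in 4 of 5 subsets with intervals below 0 (1 of 35 members, against 4.39% of all genes, in at least 4). It stood at 76.3 and 42.7 CPM in Vcam1 macrophages (-0.84), 87.2 and 72.3 CPM in Mmp12 macrophages (-0.27), 52.8 and 34.5 CPM in cycling macrophages (-0.62) and 71.2 and 41.6 CPM in other macrophages (-0.78). In Ctsk macrophages it stood at 68.6 and 69.1 CPM (0.01), where 1 NAM cell held 21 of 89 UMIs. Without interferon-high cells it was lower in 5 of 5 subsets (-1.08 to -0.21). Irf7 and Zbp1 thus differed the same way in each of the 5 subsets, and Oasl1 did so in each only without interferon-high cells. The subsets are parts of the same 2 libraries, so they do not replicate each other.

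The genes concentrated in interferon-high cells varied more from subset to subset. In Mmp12 macrophages Ifit1 stood at 55.6 and 106 CPM (log2 ratio 0.93, interval 0.67 to 1.19), Ifit3 at 58.8 and 99.6 CPM (0.76, 0.50 to 1.02) and Rsad2 at 100.2 and 157 CPM (0.65, 0.45 to 0.85). A single NAM cell held 126 of the 400 Ifit1 UMIs there, and without it the ratio was 0.39 (0.11 to 0.67). Interferon-high cells held 20.4% of member UMIs in untreated and 33.8% in NAM Mmp12 macrophages. In cycling macrophages Rsad2 (73.2 and 46.2 CPM, -0.66) and Ifit3 (78.1 and 55.0 CPM, -0.51) went the other way. Cmpk2 at 37.6 and 14.5 CPM (-1.37, -1.84 to -0.92), Ifit3b at 22.2 and 11.2 CPM (-0.99), Mx1 (-0.86) and Oas2 (-0.76) were also lower there, while the ratios of Cmpk2 and Ifit3b were below 0 in 5 of 5 subsets. There 1 untreated cell held 36 of the 146 Cmpk2 UMIs. Interferon-high cells held 25.2% of member UMIs in untreated and 12.5% in NAM cycling macrophages, from 10 and 8 cells.

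In Ctsk macrophages, which carry the proteases Ctsk and Acp5, Ifit1 stood at 32.3 and 61.4 CPM (0.93), and 1 NAM cell held 44 of its 79 UMIs. Isg20 (1.07), Dhx58 (-0.64) and Usp18 (-0.54) also passed the fold there with intervals that left out 0. Oas3 was at 0.65 in Vcam1 macrophages and at -0.71 in Mmp12 macrophages. Mx1 (-0.67) and Ifit3b (-0.55) joined Oasl1 in other macrophages. A few cells supplied much of these counts, and the intervals, which take UMIs as independent, are too narrow for them. By the fold alone, 2 of 35 members were higher (8.47% of all genes) and 4 lower (13.7%) in Ctsk macrophages. In Vcam1 macrophages 2 were higher (6.19%) and 1 lower (12.03%), and in Mmp12 macrophages 3 (6.34%) and 1 (11.57%). In cycling and other macrophages 0 were higher, and 7 (10.03%) and 3 (10.45%) were lower.

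**Figure D5:**
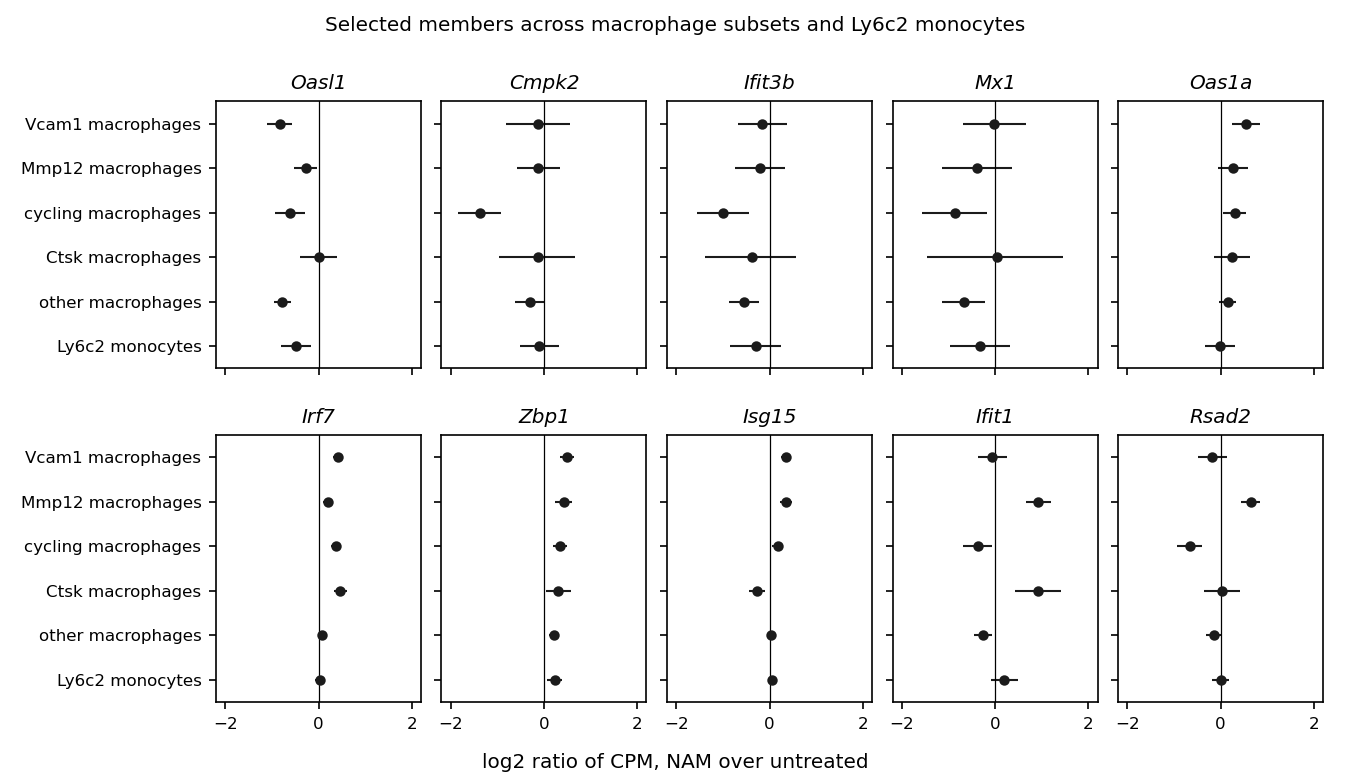
Log2 ratio of CPM, NAM over untreated, of 10 members in the 5 macrophage subsets and in Ly6c2 monocytes, with exact 95% intervals for counting error. Irf7 and Zbp1 lie above 0 in all 5 macrophage subsets and Oasl1 below 0 in 4 of 5, while Ifit1 and Rsad2 lie on either side of 0 from subset to subset.

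In Ly6c2 monocytes the median log2 ratio over the 35 members was -0.05, against -0.03 over all 6746 genes. By the fold used, 1 member was higher (10.8% of all genes) and 0 were lower (15.1% of all genes). The member was Parp14, an ADP-ribosyltransferase, at 63.6 CPM (81 UMIs) without NAM and 93.1 CPM (115 UMIs) with NAM (0.55, interval 0.13 to 0.98). Oasl1 stood at 152 and 108 CPM (-0.48, -0.81 to -0.16), the single member with an interval below 0. Ifit2 (62.1 and 85.8 CPM, 0.47), Ifit3 (137 and 181 CPM, 0.40), Rtp4 (395 and 469 CPM, 0.25) and Zbp1 (461 and 542 CPM, 0.23) had intervals above 0. Isg15 and Irf7, the most counted members, were at 0.06 and 0.02. Under the alternatives the counts past the fold ran from 1 to 5 higher and from 0 to 2 lower in this small group.

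Without interferon-high cells, 34 members kept 20 or more UMIs in monocytes (Cmpk2 did not), with a median of -0.07, 2 higher (11.7% of all genes) and 4 lower (15.7% of all genes). Oasl1 stood at 114 CPM (130 UMIs) without NAM and 56.1 CPM (63 UMIs) with NAM (-1.02, interval -1.48 to -0.57). Dhx58 stood at 62.9 and 39.2 CPM (-0.68, -1.26 to -0.12), and the intervals of Mx1 (-1.04) and Ddx58 (-0.53) included 0. Those higher were Ifit3, at 30.5 and 65.6 CPM from 32 and 69 UMIs (1.10, 0.48 to 1.75), and Ifit2, at 10.5 and 23.8 CPM from 11 and 25 UMIs (1.18, 0.10 to 2.35). Oasl1 was lower and Zbp1 higher (0.21, 0.03 to 0.39) in monocytes as in macrophages. Under the alternatives the counts without interferon-high cells ran from 1 to 7 higher and from 2 to 5 lower.

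Dendritic cells, which present antigen to T cells, had a lower level of the list in the NAM library. Of the 30 members with 20 or more UMIs, 0 were higher (14.6% of all genes) and 20 were lower (15.4% of all genes), 16 of them with an interval below 0 (6.83% of all genes). The median log2 ratio was -0.78, against 0.04 over all 5638 genes. The lowest were Ifit2 (44 and 2 UMIs, -4.49), Rsad2 (72 and 5 UMIs, -3.88), Ifit1 (79 and 10 UMIs, -3.01), Ifit3 (67 and 14 UMIs, -2.29) and Ifih1 (54 and 17 UMIs, -1.70). Isg15 stood at 682 and 320 CPM (-1.09, -1.31 to -0.88), Irf7 at 629 and 333 CPM (-0.92, -1.14 to -0.70) and Oasl1 at 111 and 44.1 CPM (-1.34). Zbp1, higher in NAM macrophages, stood at 149 and 125 CPM with an interval that included 0.

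Much of this rested on single cells. The first were 3 untreated Cd209a dendritic cells that were interferon-high, with 166, 181 and 368 member UMIs each. They held 24.8% of the member UMIs of all untreated dendritic cells and 58.8% of those of untreated Cd209a dendritic cells. Their C1q UMIs were 4, 8 and 5, and they had 0 UMIs of Ly6c2. Without interferon-high cells the median over the 25 members left was -0.51, with 3 higher (14.9% of all genes) and 13 lower (15.4% of all genes), 8 of them with an interval below 0 (6.62% of all genes). Isg15 then stood at 528 and 320 CPM (-0.72, -0.95 to -0.49), Irf7 at 583 and 333 CPM (-0.81, -1.03 to -0.59), Oasl1 at 102 and 44.1 CPM (-1.21), Ifih1 at 50.9 and 20.8 CPM (-1.29) and Pyhin1 at 60.1 and 26.9 CPM (-1.16). Those higher were Isg20, Oas1a and Phf11d (0.60 to 0.61), each with an interval that included 0. The alternatives left fewer members to compare: 13 of 18 were lower when all dendritic cells were thinned to 3000 UMIs and 5 of 6 when cells with markers of another lineage were left out (median -1.13, with Ifih1 at -0.08), against 20 of 30. Without interferon-high cells 2 of 25 were lower under stricter gates.

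A further untreated cell, a type 1 dendritic cell with 493 member UMIs that was high by the second gate but not by the first, held 132 of the 545 Isg15 UMIs and 23 of the 54 Ifih1 UMIs of untreated dendritic cells, with 11 C1q UMIs. Leaving it out was chosen after seeing the data. Over all dendritic cells 16 of 30 members were then lower (15% of all genes; median -0.53), with Isg15 at -0.74, Irf7 at -0.66 and Ifih1 at -0.94. With the interferon-high cells left out by the first gate for every member, 17 of 29 members were lower (15.4% of all genes; median -0.55), and without this cell as well 5 of 26 were lower (15.2% of all genes; median -0.12), with Isg15 at -0.20 (interval -0.45 to 0.05), Ifih1 at -0.05, Irf7 at -0.51 (-0.74 to -0.28) and Oasl1 at -0.75 (-1.40 to -0.12). When the NAM type 1 dendritic cell with the most member UMIs (297, also high by the second gate alone) was left out too, 9 of 25 were lower (15.2% of all genes; median -0.26), with Isg15 at -0.58 and Irf7 at -0.91. The median thus moved with 4 untreated cells and 1 NAM cell. Irf7 was as low without these 5 cells as with them, and Oasl1 stood at -0.99 (-1.68 to -0.32) without them. For Irf7, 1 untreated mature dendritic cell that held 69 of the 98 UMIs of its type was not left out.

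In type 1 dendritic cells (Xcr1, Clec9a; 25 and 29 cells, none interferon-high by the first gate and 1 in each library by the second) the median over 22 members was -0.63, with Isg15 at 550 and 226 CPM (-1.28), Irf7 at 601 and 397 CPM (-0.60), Oasl1 at 128 and 48.8 CPM (-1.39) and Ifih1 at 31 and 3 UMIs (-3.44). Ifit2 (-3.24) and Pyhin1 (-1.54) were also lower. The untreated cell named above held 132 of the 236 Isg15, 94 of the 258 Irf7 and 23 of the 31 Ifih1 UMIs of this type, and the NAM cell 64 of 102 Isg15 and 69 of 179 Irf7 UMIs. Without the untreated cell the median over 17 members was 0.11, with Isg15 at -0.18 (interval -0.59 to 0.23), Irf7 at -0.03 (-0.34 to 0.29) and Ifih1 at 8 and 3 UMIs. Without both cells it was -0.61 over 16 members, with Isg15 at -1.57 and Irf7 at -0.69. In mature dendritic cells (Ccr7, Fscn1; 13 and 14 cells) Irf7 stood at 826 and 335 CPM (-1.30), and 1 untreated cell held 69 of its 98 UMIs. In Cd209a dendritic cells (28 and 33 cells) Irf7 stood at 584 and 228 CPM (-1.36) and Isg15 at 739 and 337 CPM (-1.13). In each type, 1 or a few cells held much of these counts. The makeup of the group differed too: Ccr7 stood at 1170 CPM in untreated and 568 CPM in NAM dendritic cells. Ly6c2, the marker of the monocyte group, stood at 149 and 56.3 CPM there, and Hmox1 at 66.3 and 13.5 CPM. Xcr1 and Clec9a went the other way, together at 211 and 337 CPM. The part of these differences in the result was not tested.

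Lymphocytes gave fewer members to compare. In CD8 T cells 20 members had 20 or more UMIs, with a median of -0.07, 2 higher (12.2% of all genes) and 6 lower (15.3% of all genes). Usp18 alone passed the fold with an interval that left out 0, at 21 and 9 UMIs (-1.83, -3.14 to -0.65), and 1 untreated cell held 10 of the 21. In other T cells, those without Cd8a and Cd8b1, 25 members had a median of -0.16, with 3 higher (13.8% of all genes) and 7 lower (16.4% of all genes). Dhx58 (20 and 9 UMIs, -1.28), Ddx58 (25 and 13 UMIs, -1.07) and Pyhin1 (41 and 25 UMIs, -0.84) were lower with intervals below 0. Rsad2 was higher (9 and 25 UMIs, 1.34), but 1 NAM cell held 20 of the 25 UMIs, and without interferon-high cells the ratio was -0.87. The makeup of this group differed between the libraries, with 4 NK genes (Gzma, Klrb1c, Klrd1, Xcl1) summing to 728 and 1365 CPM, 5 neutrophil genes to 16.3 and 180 CPM, and Fscn1 and Cd209a at 88.8 and 65.2 CPM without NAM and 0 with NAM. Their part in the result was not tested.

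In NK cells 21 members had a median of 0.09, with 6 higher (14.2% of all genes) and 2 lower (19.4% of all genes). Isg15 stood at 287 CPM (141 UMIs) and 478 CPM (110 UMIs; 0.74, interval 0.36 to 1.11), Zbp1 at 187 and 269 CPM (0.52, 0.04 to 1.00) and Ifit1 at 11 and 18 UMIs (1.80, 0.64 to 3.03). In the NAM library 1 of 42 NK cells was interferon-high and held 20.8% of the group's member UMIs, and 1 cell held 40 of the 110 Isg15 UMIs. Leaving out the 5 cells of each library with the highest member share gave -0.19 for Isg15 and -0.36 for Ifit1, so these differences rested on a few cells. The makeup of this group differed too. Its 4 cycling genes (Top2a, Birc5, Ube2c, Mki67) summed to 325 and 143 CPM, with Ly6c2 at 1139 and 682 CPM and Ccr7 at 266 and 117 CPM. The 4 NK genes named above summed to 5911 and 6416 CPM. The part of these differences was not tested.

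The list was set beside 34 other genes of the interferon pathways. In macrophages 27 of them had 20 or more UMIs, and 6 were higher by the fold used (4.09% of all genes) and 0 lower (9.24% of all genes). They were Irf1 (75.8 and 135 CPM, log2 ratio 0.83, interval 0.74 to 0.92), Socs1, a feedback inhibitor of the kinases (38.8 and 71.6 CPM, 0.88), the chemokine Cxcl9 (259 and 381 CPM, 0.55), Gbp4 (84.5 and 124 CPM, 0.56), Iigp1 (145 and 214 CPM, 0.56) and Ifnb1. Cxcl9, Gbp4 and Iigp1 had been listed as genes driven mainly by interferon gamma, the type II interferon. Other genes listed so, among them Gbp2 and Cd274, did not pass the fold in macrophages. The receptor chains stood at 69.5 and 70.6 CPM (Ifnar1, 0.02) and at 185 and 162 CPM (Ifnar2, -0.19, -0.25 to -0.12).

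Between interferon-high and other macrophages these genes did not all stand alike. Cxcl9 was at the same level in interferon-high and other macrophages of the untreated library (1.00-fold) and at 0.858-fold in the NAM library, and Irf1 stood at 1.34-fold and 1.28-fold. Iigp1 stood at 2.91-fold and 1.86-fold, Gbp2 at 2.80-fold and 1.96-fold, Socs1 at 2.16-fold and 2.27-fold and Gbp4 at 1.87-fold and 1.29-fold. In monocytes 6 of 23 pathway genes were higher (10.8% of all genes) and 1 lower (15.1%), with Irf1 (126 and 184 CPM, 0.54), Socs1 (70.7 and 146 CPM, 1.04), Gbp4 (0.66) and Iigp1 (0.98) higher and Cxcl9 at 309 and 245 CPM (-0.34, -0.56 to -0.12). In dendritic cells 5 of 21 were higher (14.6% of all genes) and 2 lower (15.4%), with Socs1 at 26 and 86 UMIs (1.70, 1.05 to 2.39), the double-stranded RNA receptor Tlr3 at 15 and 32 UMIs (1.06) and Cd274 at 83 and 31 UMIs (-1.45). CD8 T cells had 2 of 16 higher (12.2% of all genes) and 1 lower (15.3%), other T cells 2 of 19 (13.8%) and 2 (16.4%), and NK cells 6 of 18 (14.2%) and 3 (19.4%). Irf1 passed the fold upwards in each of these 6 groups, whereas Irf7 did so in none.

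Of the ligands, Ifna1, Ifna4, Ifna5, Ifnl2 and Ifnl3 had 0 UMIs in macrophages, monocytes and dendritic cells of both libraries, and Ifna2 had 2 UMIs, both in 1 interferon-high Mmp12 macrophage of the NAM library. Ifnb1, which encodes interferon beta, had 16 UMIs in 6 cells of the untreated and 78 UMIs in 8 cells of the NAM library, and 4 and 76 of these lay in macrophages. In the NAM library 4 macrophages held 44, 17, 9 and 3 of them. All 4 were interferon-high, 3 were Mmp12 macrophages and 1 was a Ctsk macrophage, and their members stood at 23165, 20130, 16727 and 22884 CPM. In the untreated library the cell with most Ifnb1, 8 UMIs, passed no gate and was not interferon-high. The Ifnb1 difference thus rested on 4 cells.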

How the data were processed

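The members, the pathway list and the alternatives were chosen with earlier results of these data known. The authors deposited whole-number UMI counts per gene and cell, made with Cell Ranger (mm10) from 10x Genomics 3′ version 2 libraries and already filtered for cell quality. The submitters' processing notes also name Seurat. Counts were analysed as deposited. Cells were grouped by marker UMIs (for example 20 or more of C1qa, C1qb and C1qc for macrophages), with thresholds set after these UMIs had been seen. UMIs were summed per library and group and divided by the group's total (CPM), with exact Poisson, conditional binomial and Clopper-Pearson intervals at 95%. Where a count was 0, 0.5 UMIs were added. Genes past the fold had a log2 ratio of 0.5 or more either way and 20 or more UMIs over both libraries. Values are given in full for members past the fold with an interval that left out 0 (at most 5 in each direction per group), for the gate genes, and for the 5 highest and 5 lowest folds between interferon-high and other macrophages. Thinning used seed 1. No doublets were removed. Alternatives left out cells with markers of another lineage or in the top 5% of UMIs. The steps were tested on simulated data. Python 3.11.15, NumPy 2.4.6, SciPy 1.17.1, pandas 2.3.3 and matplotlib 3.10.9 were used. A gene of the pathway list enters its counts but is not reported here.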

Additional observations from a re-analysis of the deposited data

Results flagged for a closer look

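For 4 members, a pair of the 6 main cell groups stood on opposite sides of 0 past the fold with intervals that left out 0, in 1 library per condition, and the difference between the groups was not tested. Of all 7628 genes with 20 or more UMIs in at least 2 of these groups, 1.61% met the same rule. Ifit1 was at a log2 ratio of 1.80 in NK cells and -3.01 in dendritic cells, a difference of 4.82. Isg15 was at 0.74 and -1.09 in the same groups, a difference of 1.83. Parp14 was at 0.55 in Ly6c2 monocytes and -1.17 in dendritic cells, a difference of 1.72. Rsad2 was at 1.34 in other T cells and -3.88 in dendritic cells, a difference of 5.22. These upward values of Ifit1, Isg15 and Rsad2 rested on a few cells and fell to -0.88, -0.69 and -3.60 under alternatives, and 1 NAM cell held 20 of the 25 Rsad2 UMIs. The downward values in dendritic cells also rested on few cells. Without interferon-high cells Ifit1 and Rsad2 had fewer than 20 UMIs there, and Isg15 moved with the single cells named above. For Parp14, 1 untreated Cd209a dendritic cell held 6 of the 12 UMIs of its type. Among the 5 macrophage subsets 3 members met the same rule of opposite sides (0.71% of 10007 genes), also untested. Ifit3 was at 0.76 in Mmp12 and -0.51 in cycling macrophages, a difference of 1.27. Oas3 was at 0.65 in Vcam1 and -0.71 in Mmp12 macrophages, a difference of 1.36. Rsad2 was at 0.65 in Mmp12 and -0.66 in cycling macrophages, a difference of 1.31. Cells that passed no gate entered no comparison, and 12 of 401 (2.99%) without NAM and 16 of 513 (3.12%) with NAM were interferon-high.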

How the results depend on the processing

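With 1 library per group, pools of 3 mice and no replicate, depth limits only counting error. The median log2 ratio of the members ran from -0.04 to 0.07 in macrophages (0.03 to 0.11 without interferon-high cells), -0.06 to 0.12 in monocytes (-0.12 to 0.12), -1.13 to -0.47 in dendritic cells (-1.13 to -0.02 without interferon-high cells, against -0.51 as reported), -0.16 to 0.13 in CD8 T cells, -0.32 to -0.01 in other T cells and -0.53 to 0.31 in NK cells. No paired analysis was possible because each group was 1 library. Leaving out interferon-high cells in dendritic, other T and NK cells, single type 1 dendritic cells, the macrophage with the most Ifit1, and cells with red cell RNA (2 members lower in macrophages), was chosen after seeing the data. Counts of members past the fold moved as follows. Thinning, a minimum of 100 UMIs and leaving out cells also leave fewer members with enough UMIs, so "of" gives the members compared where these were fewer in dendritic and NK cells, and otherwise the cause was not tested. Thinned cells gave 2 lower in macrophages, 3 higher and 1 lower in monocytes, 13 of 18 lower in dendritic cells, 1 higher and 2 lower in CD8 T cells and in other T cells, and 2 of 10 higher in NK cells. Without interferon-high cells thinning gave 2 lower in macrophages, 7 higher in monocytes, and 0 higher and 6 of 13 lower in dendritic cells. Leaving out the 5 cells of each library with the highest member share gave 2 lower in macrophages, 5 higher and 1 lower in monocytes, 1 higher and 13 lower of 23 in dendritic cells, 4 higher and 2 lower in CD8 T cells, 1 higher in other T cells, and 2 higher and 5 lower of 14 in NK cells, and 6 higher and 2 lower in monocytes without interferon-high cells. The mean over cells gave 3 higher in monocytes, and 4 higher and 3 lower in CD8 T cells. No minimum of UMIs gave 4 higher and 13 lower in CD8 T cells, 7 and 13 in other T cells, and 15 and 5 in NK cells. A minimum of 100 UMIs gave 7 of 10 lower in dendritic cells, 0 and 0 in CD8 T cells, 0 and 1 in other T cells, and 2 and 0 of 4 in NK cells, and without interferon-high cells 1 and 2 in monocytes and 0 and 5 of 8 in dendritic cells. Stricter gates gave 3 higher and 1 lower in monocytes, 1 higher in dendritic cells and 1 lower in NK cells, and without interferon-high cells 4 higher in monocytes and 2 lower in dendritic cells. Leaving out cells with markers of another lineage gave 4 lower in macrophages, 2 and 2 in monocytes, 5 of 6 lower in dendritic cells, and 1 and 7 of 12 in NK cells, and without interferon-high cells 4 lower in macrophages, 4 higher in monocytes, and 0 and 5 of 6 in dendritic cells. Leaving out the top 5% of cells by UMIs gave, without interferon-high cells, 2 lower in macrophages and 5 and 4 of 23 in dendritic cells. Without interferon-high cells, dendritic cells had 3 higher, other T cells 0 higher, and NK cells 3 and 5 of 18. A cut of 3 gave 4 higher and 2 lower in monocytes without interferon-high cells, and the second gate 5 and 2, with 1 higher in dendritic cells. The share of interferon-high macrophages was 6.41% and 5.70% at a cut of 3, 2.12% and 1.93% at a cut of 8, and 2.53% by the second gate in the NAM library. That of monocytes was 17.3% in the untreated library at a cut of 3 and by the second gate, and 17.5% in the NAM library by the second gate, with lows of 6.60% and 9.43% at a cut of 8. Of 110 values of 15 named member and group pairs under the alternatives, 96 kept their side of the fold and 6 reversed: Rsad2 in other T cells (-3.60 without the 5 cells of highest member share, -0.87 without interferon-high cells), and in NK cells Ifit1 (-0.36 and, without cells with other markers, -0.88) and Isg15 (-0.19 and -0.69).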

Other observations

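Genes outside the list also stood higher in interferon-high macrophages of both libraries, as values from the cells the gate selected. The double-stranded RNA receptor Tlr3 stood at 48.8 CPM in interferon-high and 6.33 CPM in other macrophages of the untreated library (7.71-fold) and at 7.17-fold in the NAM library. The Schlafen genes Slfn5 (7.01-fold and 7.77-fold), Slfn4 (6.32-fold and 7.10-fold) and Slfn1 (9.21-fold and 5.86-fold) followed, with Phf11a (8.15-fold and 7.97-fold) and the histone chaperone Daxx (6.26-fold and 6.41-fold). The chemokine Cxcl10 stood at 7.71-fold and 5.08-fold and the elastase Mmp12 at 6.47-fold and 4.68-fold. The receptor Gpr34 was lower, at 0.419-fold and 0.503-fold. These genes were named after their values had been seen.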
